A study of Homo sapiens with 18 samples.

Results

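The chromatin around 9 genes for transcription factors of the squamous epithelial lineage (TP63, SOX2, KLF4, KLF5, GRHL1, GRHL2, GRHL3, OVOL1 and ZNF750) was examined by ATAC-seq, an assay that reads open chromatin from the places where a transposase can cut and tag the DNA. A region of the deposited accessibility table was taken as a member where it overlapped the body of one of these genes, or the 50 kb on either side, in the GENCODE annotation of the human genome build GRCh37 (hg19). This gave 109 of 115087 regions: 28 for TP63, 7 for SOX2, 4 for KLF4, 11 for KLF5, 12 for GRHL1, 20 for GRHL2, 13 for GRHL3, 5 for OVOL1 and 9 for ZNF750. The libraries came from SCC1, SCC6 and SCC25, established lines from squamous carcinomas of the head and neck (HNSCC). Cells of each line received cetuximab, an antibody that blocks the epidermal growth factor receptor (EGFR), at 100 nM each day for 5 days, or PBS as the untreated control. The table held 3 replicates per group, except SCC1 PBS with 2 (replicate 2 was not analysed here). Each line is a single model of the disease, and nothing in the labels says whether replicates were separate cultures, so the p-values measure the spread between these samples, which may be technical.

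Stratified squamous epithelium is built by basal cells that divide and then move upwards while they differentiate. TP63 encodes p63, a relative of p53 and the central factor of basal squamous cells. Transcripts from its distal start give the TA proteins, and those from its internal start give the deltaN proteins that predominate in squamous epithelium. SOX2, a pluripotency factor, lies in the same chromosome arm and is often gained together with TP63 in squamous carcinomas. The zinc finger factors KLF4 and KLF5 act in differentiating and in proliferating epithelial cells, respectively, the grainyhead-like factors GRHL1, GRHL2 and GRHL3 maintain cell junctions and the barrier, and OVOL1 and ZNF750 act in late differentiation. EGFR signalling promotes the growth of these cells and holds back their differentiation, and the treated and untreated libraries let its blockade be read at these genes.

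The sequences of 7 regions on which the results turn are shown first, read from GRCh37 on the plus strand (the central 300 bases where the region was longer). They are 4 TP63 regions, namely an intronic region that rose in SCC6, the loss in SCC1 with the smallest p, a region most open in SCC1 and one seen in SCC6 alone, then the SOX2 and ZNF750 regions that were low in SCC6, and the GRHL1 region whose change had opposite directions in SCC1 and SCC6. Capitals mark matches to the letters searched, TGANTCA for AP-1, AACCNGTT for GRHL, CCNCNCCC for KLF, ACAATNG for SOX and GCCNNNGGC for TFAP2, on both strands.
TP63 intron, higher in SCC6 with cetuximab, chr3:189551835-189552134: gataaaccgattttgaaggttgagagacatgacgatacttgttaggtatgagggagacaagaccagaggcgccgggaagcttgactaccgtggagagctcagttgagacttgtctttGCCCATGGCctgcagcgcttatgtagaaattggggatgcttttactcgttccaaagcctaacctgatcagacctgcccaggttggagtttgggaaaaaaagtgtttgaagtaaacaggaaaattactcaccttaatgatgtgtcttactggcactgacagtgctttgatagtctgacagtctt
TP63 3′ flank, lower in SCC1 with cetuximab, chr3:189626495-189626794: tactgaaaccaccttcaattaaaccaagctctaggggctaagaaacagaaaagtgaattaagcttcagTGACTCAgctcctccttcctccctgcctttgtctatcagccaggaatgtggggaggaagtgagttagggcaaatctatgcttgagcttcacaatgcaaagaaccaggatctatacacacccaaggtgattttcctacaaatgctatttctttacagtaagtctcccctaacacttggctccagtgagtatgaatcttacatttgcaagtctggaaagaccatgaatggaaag
TP63 intron, most open in SCC1, chr3:189557470-189557769: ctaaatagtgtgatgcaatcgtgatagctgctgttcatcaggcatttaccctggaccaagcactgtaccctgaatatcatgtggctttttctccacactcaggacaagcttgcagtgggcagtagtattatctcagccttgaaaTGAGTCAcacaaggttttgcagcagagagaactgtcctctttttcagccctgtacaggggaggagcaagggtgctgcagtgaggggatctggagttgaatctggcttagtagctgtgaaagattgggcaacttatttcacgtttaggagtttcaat
TP63 intron, seen in SCC6, chr3:189357693-189357892: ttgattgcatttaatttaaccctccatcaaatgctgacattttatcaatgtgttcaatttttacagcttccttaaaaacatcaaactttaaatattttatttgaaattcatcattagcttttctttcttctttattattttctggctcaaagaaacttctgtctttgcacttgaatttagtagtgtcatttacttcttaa
SOX2 upstream, low in SCC6, chr3:181413412-181413711: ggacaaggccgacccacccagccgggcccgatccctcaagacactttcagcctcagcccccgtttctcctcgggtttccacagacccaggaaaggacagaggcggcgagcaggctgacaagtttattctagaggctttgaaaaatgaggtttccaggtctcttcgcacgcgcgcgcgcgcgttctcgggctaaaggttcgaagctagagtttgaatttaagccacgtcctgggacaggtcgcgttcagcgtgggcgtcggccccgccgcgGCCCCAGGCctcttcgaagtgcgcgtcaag
GRHL1 upstream, opposite changes, chr2:10084500-10084799: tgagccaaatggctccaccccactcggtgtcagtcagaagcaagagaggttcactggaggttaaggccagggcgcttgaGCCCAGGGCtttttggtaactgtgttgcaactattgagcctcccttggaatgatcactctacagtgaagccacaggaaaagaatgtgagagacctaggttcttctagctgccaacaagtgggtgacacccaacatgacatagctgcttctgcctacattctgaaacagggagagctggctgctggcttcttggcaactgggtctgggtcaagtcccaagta
ZNF750 intron, low in SCC6, chr17:80793979-80794278: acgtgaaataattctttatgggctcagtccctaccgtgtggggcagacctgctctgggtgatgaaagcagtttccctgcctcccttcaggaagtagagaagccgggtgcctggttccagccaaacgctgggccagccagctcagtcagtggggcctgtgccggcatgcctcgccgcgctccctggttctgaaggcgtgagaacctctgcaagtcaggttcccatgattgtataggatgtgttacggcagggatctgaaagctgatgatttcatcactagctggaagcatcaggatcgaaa

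An AP-1 match stood in the TP63 3′ flank region (TGACTCA, from base 69 of the sequence) and in the TP63 region most open in SCC1 (TGAGTCA, from base 145). A TFAP2 match stood in the TP63 intronic region that rose in SCC6 (from base 118), in the SOX2 region (from base 271) and in the GRHL1 region (from base 80). The SOX2 sequence held 29 CpG dinucleotides and a GC content of 61.3%, while the TP63 sequence seen in SCC6 held 0 and 26.5%. In 300-base windows at the centre of each region, AP-1 letters were found in 38 of 109 member regions (34.9%, against 31.5% of all regions) and in 13 of the 28 TP63 regions (46.4%). GRHL letters were found in 8 member regions (7.34% against 3.00%), TFAP2 letters in 20 (18.3% against 11.8%), KLF letters in 41 (37.6% against 31.4%) and SOX letters in 8 (7.34% against 9.31%). A pair of CATG cores spaced as in the p63 motif was found in 1 member region, in the GRHL1 window (0.917% against 1.43%). A match is a run of letters and was not tested for binding.

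The values below are deposited signals, that is reads per region multiplied by one scaling factor per library (scaled reads). They are not per length, so levels are compared between libraries at 1 region and not between regions. The libraries held 2194851 to 15017130 reads in regions, those of SCC1 at most 4171650, and the median region of a library held 7 to 68 reads. The lineage of the lines was read at promoter regions (within 1 kb of a start site). All 8 squamous and epithelial markers searched had one (KRT5, KRT14, CDH1, EPCAM, TP63, DSG3, KRT17 and ITGB4), against 0 of 3 leukocyte, 0 of 2 endothelial and 1 of 3 fibroblast markers (DCN, group means of 0.649 to 3.68). In SCC6, however, KRT14 (PBS mean 1.66) and DSG3 (0.988) were at or near the lowest value the table can hold. In bulk ATAC-seq, a change in the share of open cells and a change within each cell cannot be told apart.

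Of the 109 member regions, 53 lay in introns, 41 between protein-coding genes, 8 over coding exons and 7 over UTRs. Their median width was 279 bases (258 in the whole table) and their median GC content 47.6% (45.9%). In all, 2 had a peak in each of the 17 libraries, as did 5429 of all regions. For 31 of them the nearest protein-coding start was that of another gene. Depending on the fit, 91 to 100 members passed the filter on low values, and the counts below are of those.

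Cetuximab was associated with changes at these loci in SCC1 and SCC6, and none passed the test in SCC25. In SCC1, 17 of 99 tested member regions changed at an adjusted p under 0.05 (limma on log2 of the signal plus 1, with adjustment over all regions tested), 9 higher and 8 lower. The background in that comparison was 11.1% of all tested regions, with 4.57% higher and 6.56% lower. In SCC6, 20 of 91 changed, 9 higher and 11 lower, against a background of 27.5% (16.9% higher and 10.6% lower). The median log2 change of the tested members lay near 0 in each line, at −0.03 (SCC1), 0.03 (SCC6) and 0.04 (SCC25). The treated and untreated libraries did not overlap at any of the 17 regions in SCC1 and at 19 of the 20 in SCC6. A call from so few libraries largely requires such separation, and its share over all called regions was not taken. These counts are thus a description and add no support to the calls. In SCC25, whose treated libraries were shallower than the untreated ones (2513828 to 7385401 against 5509462 to 13408698 reads), 0 of 97 were called by limma, against a background of 0.315% (0.0405% higher and 0.275% lower). There, 6 of the 97 had an unadjusted p under 0.05, where 11405 of all 86315 tested regions did, and the lowest adjusted p was 0.161. Of the count tests, edgeR called 1 member (968 of all regions) and DESeq2 0 (273 of all regions). Other scalings gave other splits of direction. Centring on library medians gave 12 higher and 6 lower in SCC1 (6852 and 3647 of all 86321 regions). In SCC6 it gave 5 higher and 17 lower (10394 and 15782 of all 86315). Scaling by reads of peak-free regions gave 7 and 8 in SCC1 (3285 and 6503 of all 86322). In SCC6 that scaling gave 21 and 7 (26503 and 5227 of all 86315). The median change over all tested regions was −0.09 (SCC1), 0.11 (SCC6) and −0.08 (SCC25) before centring, and 0.10, −0.06 and −0.01 after it. Single libraries also moved the counts. In SCC1, 10 regions (3 higher, 7 lower) were called when cetuximab replicate 1 was left out, 3 when PBS replicate 1 was, and 6 when PBS replicate 3 was. In SCC6, 13 were called when PBS replicate 1 was left out. Without any 1 library of the comparison, 2 of the 17 calls in SCC1 and 9 of the 20 in SCC6 passed in every such refit. Under each other setting 9 of the 17 and 9 of the 20 held. For these calls the libraries and settings that ended the call are named below. For interactions and for differences between lines they are named only in part.

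**Figure D1:**
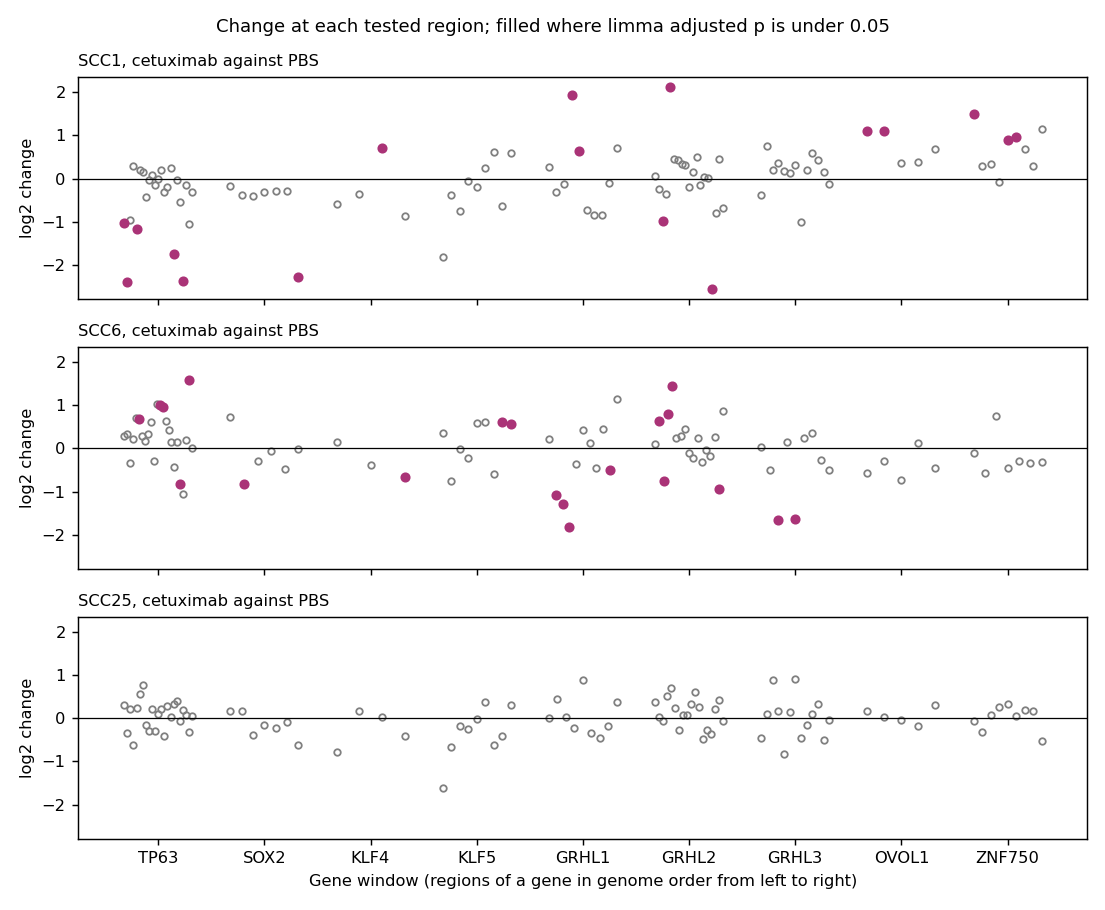
Log2 change, cetuximab against PBS, at each tested member region (y axis) by gene window (x axis), with 1 panel per line and filled points where the limma adjusted p was under 0.05. In SCC1 the 5 called TP63 regions were all lower, in SCC6 4 of 5 were higher, and in SCC25 no point is filled.

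The regions called in SCC1 also differed in base composition. The 9 higher members had a median GC content of 63.8% and the 8 lower members 44.0%, and over all called regions in SCC1 these medians were 62.0% and 46.6%. In SCC6 the order was the opposite, with 43.8% for the 9 higher and 51.5% for the 11 lower members, and 42.8% and 48.9% over all called regions. After a trend on GC content was removed, 5 members were higher and 8 lower in SCC1 (2823 and 6124 of all 86321 regions). In SCC6, 11 members were then higher and 8 lower (14048 and 7760 of all 86315). The libraries also differed in depth between treatments, in SCC25 as given above. In SCC1 the treated libraries held 2194851 to 3665345 reads and the untreated 3577180 to 4171650. In SCC6 the treated held 5271491 to 15017130 and the untreated 4098164 to 7260488, so the deepest SCC6 library was a treated one. The part of depth and base composition in the calls was not tested further. A test of whether the change differed between lines (interaction) called 15 of 99 member regions, against a background of 13.2%, of which 5 were in the TP63 window, 3 in that of GRHL1, 2 each in those of GRHL2 and OVOL1, and 1 each in those of KLF4, KLF5 and ZNF750. Of all tested regions, 11.1% were called in SCC1 and 27.5% in SCC6, and the share called in both was not taken. Among the members, 5 regions were called in both SCC1 and SCC6, which was 5 of 17 and 5 of 20. The direction was shared at 3 of these, all in the GRHL2 window, and was opposite at 1 TP63 and 1 GRHL1 region.

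In the TP63 window, the called changes with cetuximab were lower in SCC1 and mostly higher in SCC6. In SCC1, 5 of 23 tested regions were lower, where 6.56% of all regions were, and 0 higher. In SCC6, 4 of 24 were higher and 1 lower, and this share of higher calls was close to the 16.9% over all regions. No TP63 region was called higher in SCC1 under any of 15 other refits, where 1 to 6 were lower (1 without PBS replicate 1, 2 without PBS replicate 3), and 3 to 9 were higher in SCC6 under 16, with 0 to 2 lower. No region lay within 1 kb of the TA starts. The promoter region of the deltaN start (chr3:189507274-189507459, over the UTR of its first exon) had PBS means of 37.3 ± 0.623 (SD, n = 2) in SCC1, 18.5 ± 5.47 (n = 3) in SCC6 and 36.4 ± 7.25 (n = 3) in SCC25. It differed between SCC6 and SCC1 (log2 difference −1.01 ± 0.33 SE, adjusted p = 0.0262), a call lost without PBS replicate 1 or 3 of either line (adjusted p = 0.0502 to 0.0670). Its log2 changes with cetuximab of −0.42 ± 0.41 (SCC1), 0.61 ± 0.32 (SCC6) and −0.15 ± 0.29 (SCC25) did not pass the threshold. Far from either start, 147.6 kb past the deltaN start in the 3′ flank, lay an intergenic region shared by the lines (chr3:189655208-189655946, nearest to the start of P3H2, 26.0 kb away). It had a peak in each of the 17 libraries, with a fold enrichment of 2.57 to 5.42 over local background, and its signal ranged from 346 to 585.

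**Figure D2:**
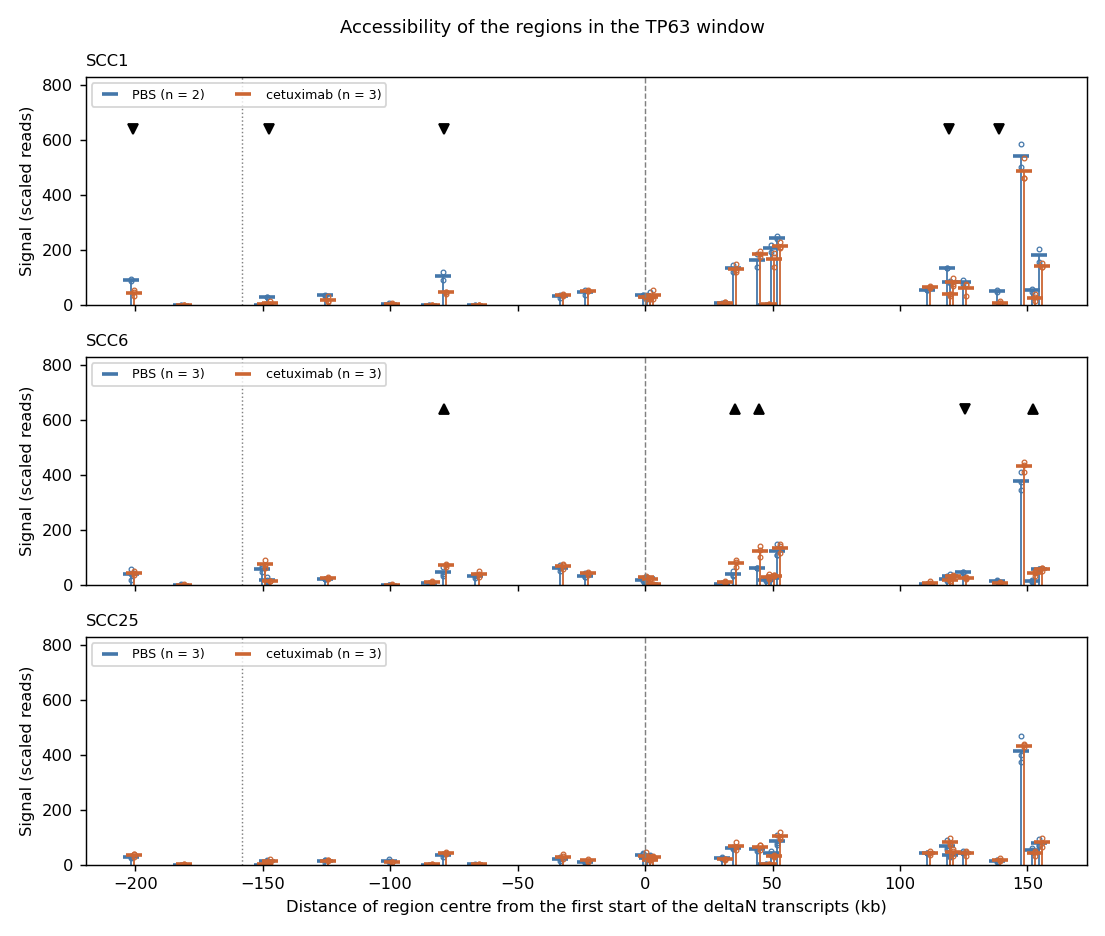
Signal in scaled reads (y axis) of the 28 regions of the TP63 window against the distance of their centre from the first deltaN start in kb (x axis), with circles for libraries, bars for group means, and triangles for regions called higher or lower with cetuximab. The dashed line marks the deltaN and the dotted line the TA start. The regions 44.2 to 51.8 kb past the deltaN start are highest in SCC1, and the region 148 kb past it is high in each line.

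In SCC6, 2 intronic regions downstream of the deltaN start were more accessible with cetuximab. At chr3:189551801-189552167, 44.2 kb past it, the treated SCC6 libraries read 102, 141 and 126 and the untreated 61.6, 60.9 and 63.1. All treated values were above all untreated ones, with a log2 change of 0.97 ± 0.18 (SE) and an adjusted p of 3.72e-05. In SCC1 the same region was already high, at 188, 175 and 199 with cetuximab and 141 and 188 with PBS, and in SCC25 it read 54.8, 71.0 and 70.8 and 58.8, 62.0 and 49.2. The groups overlapped in both lines and the log2 changes were 0.20 ± 0.20 and 0.20 ± 0.21. The difference of the change between lines had an adjusted p of 0.0537. At the neighbouring chr3:189542368-189542898, 34.8 kb past the start, the SCC6 libraries read 84.9, 66.8 and 91.2 with cetuximab and 33.8, 35.5 and 51.1 with PBS. Here too the SCC6 groups did not overlap. This gain (1.01 ± 0.23, adjusted p = 0.000536) differed from the change in the other lines (interaction, adjusted p = 0.0310), where it was −0.01 ± 0.23 in SCC1 and 0.09 ± 0.21 in SCC25. The interaction did not pass with median centring or quantile normalization, nor in 6 of the refits without 1 library (adjusted p = 0.0500 to 0.134). The intronic regions next to these, chr3:189557467-189557771 (0.43 ± 0.28, adjusted p = 0.258) and chr3:189559371-189560052 (0.15 ± 0.15, adjusted p = 0.460), did not pass in SCC6.

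A region beyond the gene also rose in SCC6. The smallest interaction p of all members was at chr3:189659589-189659743, a 155-base region in the 3′ flank. In SCC6 it read 34.3, 44.6 and 50.6 with cetuximab and 13.3, 11.4 and 16.3 with PBS, without overlap (log2 change 1.59 ± 0.31, adjusted p = 7.79e-05). In SCC1 the order was the opposite, 14.0, 38.9 and 29.7 with cetuximab and 46.8 and 60.3 with PBS, and this change of −1.04 ± 0.39 did not pass the threshold (adjusted p = 0.0673). SCC25 values overlapped, at 49.2, 44.9 and 33.6 and 60.3, 45.4 and 52.6. The interaction had an adjusted p of 0.000788. A region between the starts (chr3:189428440-189428791, 78.7 kb before the deltaN start, in an intron of the TA transcripts) had called changes of opposite sign. It fell in SCC1 from 119.7 and 91.6 to 49.5, 40.9 and 48.5 (−1.17 ± 0.30, adjusted p = 0.00300). In SCC6 it rose, from 38.7, 32.8 and 66.3 to 72.7, 78.0 and 64.1, with 1 untreated library inside the treated range (0.69 ± 0.23, adjusted p = 0.0229). The interaction had an adjusted p of 0.00261. The call in SCC1 did not pass without PBS replicate 1 (adjusted p = 0.240), nor that in SCC6 without cetuximab replicate 1 or 2 or PBS replicate 1 or 2 (adjusted p = 0.0541 to 0.174). The SCC6 call was also lost with median centring, quantile normalization, 1 joint fit or DESeq2 (adjusted p = 0.0511 to 0.125).

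In SCC1 the 5 called TP63 regions were lower with cetuximab. The clearest was chr3:189626485-189626803, intergenic in the 3′ flank, 119 kb past the deltaN start. It read 41.9, 35.0 and 40.7 in the treated and 134 and 134 in the untreated SCC1 libraries, a log2 change of −1.75 ± 0.30 with an adjusted p of 2.01e-06. In SCC6 it was low in both groups (22.2, 13.9 and 13.9 with cetuximab, 24.2, 31.4 and 14.1 with PBS). In SCC25 it was intermediate and overlapped (98.4, 72.9 and 79.7 and 89.7, 59.9 and 53.4), and the interaction had an adjusted p of 0.00374. A second 3′ region, chr3:189646131-189646341, fell from 46.8 and 53.6 to 6.35, 13.6 and 7.82 (−2.38 ± 0.54). The interaction there had an adjusted p of 0.0172, and was lost without SCC25 PBS replicate 3 (0.0531) or SCC1 PBS replicate 3. The change in SCC1 had an adjusted p of 0.000608. Its adjusted p was 0.0674 without SCC1 PBS replicate 1 and 0.0844 without replicate 3, each of which leaves a single untreated library whose spread is then taken from the others. Beside these and the region between the starts, the called regions were chr3:189306205-189306636 upstream of the gene (−1.01, adjusted p = 0.0154) and chr3:189359670-189359873 in a TA intron (−2.40, adjusted p = 0.0129). The former did not pass without PBS replicate 1 or 3 (adjusted p = 0.148 to 0.258) and the latter without PBS replicate 1 or 3 (adjusted p = 0.194 to 0.236). With DESeq2 neither passed (adjusted p = 0.0872 and 0.0892), nor did the former with median centring (0.0575) and the latter with the replicate block (0.0669). In SCC6 a single TP63 region was lower, chr3:189632703-189632943 in the 3′ flank (−0.82, adjusted p = 0.0179), a call lost without cetuximab replicate 2 or PBS replicate 1 or 3 (adjusted p = 0.0536 to 0.0977) and with scaling by peak-free regions (adjusted p = 0.0716).

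**Figure D3:**
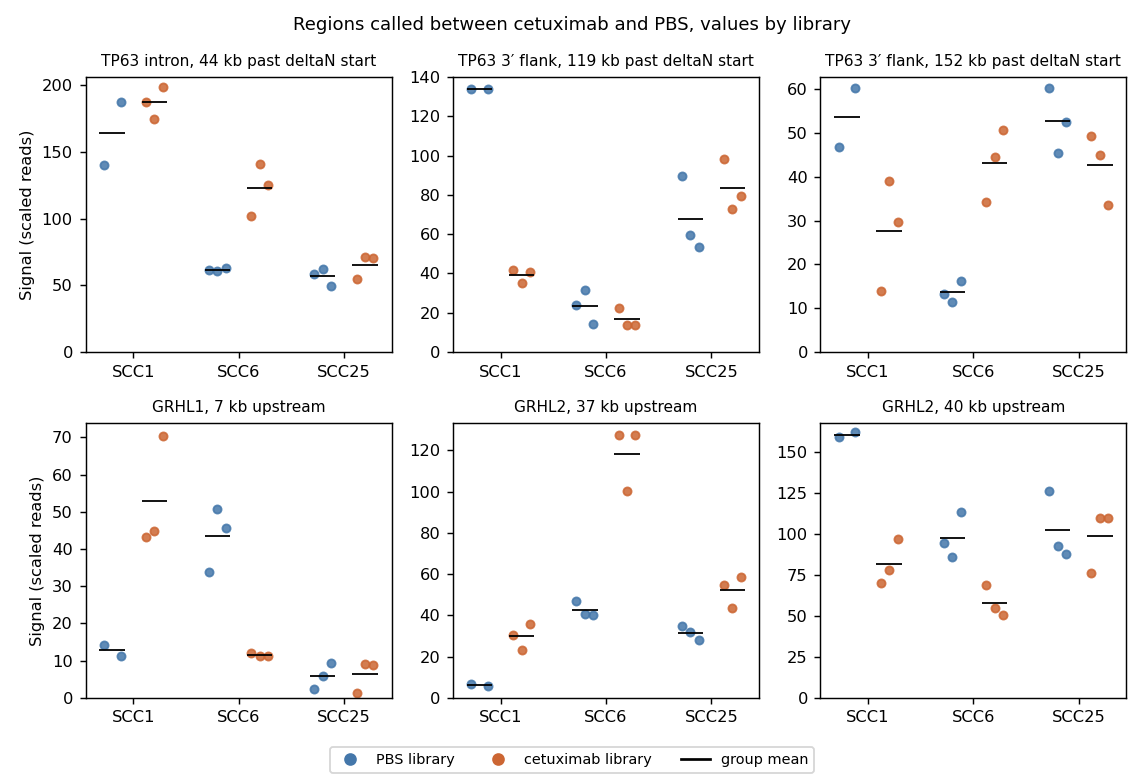
Signal in scaled reads (y axis, from 0) of each library at 6 called regions, by line (x axis), with PBS in blue, cetuximab in orange and group means as bars. In SCC6 the TP63 intronic region and the GRHL2 region 37.1 kb upstream sit above PBS in all treated libraries, and the GRHL1 region has opposite orders in SCC1 and SCC6.

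Without treatment, the TP63 window was most accessible in SCC1. Against SCC1, 17 of 24 tested TP63 regions were lower and 4 higher in SCC6, and 15 of 23 were lower and 2 higher in SCC25. Over all 9 genes, 65 of 100 members were called between SCC6 and SCC1 (background 63.4%), of which 49 were lower (background 26.7%) and 16 higher (36.7%). Between SCC25 and SCC1, 52 of 98 were called (background 58.7%), 36 lower (24.8%) and 16 higher (33.9%), and median centring made the split 46 and 9. Between SCC25 and SCC6, 63 of 97 were called (background 72.0%), 36 higher (36.9%) and 27 lower (35.1%). The members as a set were thus called about as often as other regions, and against SCC1 more of them were lower than higher, where the median difference was −0.70 in SCC6 (0.12 over all regions) and −0.40 in SCC25 (0.10 over all regions). The median log2 difference over TP63 regions was −1.12 for SCC6 and −1.01 for SCC25 against SCC1. Among regions within 5 Mb outside the window it was −0.21 (485 regions) and −0.25 (487 regions). Differences in DNA copy number between lines, which the signal would carry, cannot be told apart from accessibility here. A site called lower in both other lines was chr3:189557467-189557771, 49.9 kb past the deltaN start, with 219 and 194 in SCC1, 21.7, 25.4 and 28.3 in SCC6 and 40.7, 49.8 and 35.6 in SCC25. Its log2 difference from SCC1 was −2.99 ± 0.21 in SCC6 (adjusted p = 1.38e-05) and −2.28 ± 0.19 in SCC25 (adjusted p = 8.19e-07). At chr3:189559371-189560052 next to it, the PBS libraries read 251 and 240.1 in SCC1, 109, 109 and 150.1 in SCC6 and 107, 78.6 and 73.8 in SCC25, and both other lines were lower by the test as well (adjusted p = 0.000775 and 8.39e-06).

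A group of 4 narrow regions (195 to 201 bases) was open in SCC6 and held at most 7 reads in any PBS library of the other lines. In a TA intron of TP63, chr3:189357693-189357892 (200 bases, GC content 26.5%) read 60.4, 47.5 and 69.6 in SCC6 PBS and 89.9, 72.4 and 63.1 with cetuximab. The PBS libraries of SCC1 read 1.30 and 1.12 and those of SCC25 0.377, 0.721 and 0.848, which is 1 read or 0 in each. Against a floor of 3 reads per library, SCC6 was at least 16.3-fold higher than SCC1 and at least 30.4-fold higher than SCC25. A further TP63 region of this kind, chr3:189441417-189441616, read 37.5, 26.8 and 32.6 in SCC6 and was at least 8.90-fold higher than SCC1, and the GRHL1 intronic region chr2:10096831-10097031 was at least 8.60-fold higher. The fourth lay at KLF5 (chr13:73596183-73596377, PBS means 1.77 in SCC1, 37.4 in SCC6 and 0.774 in SCC25). A wider region of 675 bases over a coding exon of TBCD in the ZNF750 window (chr17:80847193-80847867) was also highest in SCC6, with PBS means of 10.6, 104 and 7.99. None of these 5 was called between treated and untreated SCC6 libraries.

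SOX2, an intronless gene inside the long noncoding gene SOX2-OT, had 7 regions. At its promoter region (chr3:181429227-181429831, over the UTR), the PBS libraries read 96.3 and 115 in SCC1, 95.4, 90.3 and 89.2 in SCC6 and 145, 141 and 171 in SCC25. SCC25 was above SCC6 (log2 difference 0.72 ± 0.13, adjusted p = 0.000167). Its difference from SCC1 (0.53 ± 0.15, adjusted p = 0.00992) did not pass with median centring (0.29, adjusted p = 0.115), with DESeq2 (0.39, adjusted p = 0.0991) or without SCC1 PBS replicate 1 (0.40, adjusted p = 0.0572), and SCC6 and SCC1 did not differ by the test (−0.20 ± 0.16, adjusted p = 0.300). The changes with cetuximab at this promoter were −0.28 ± 0.26 in SCC1, −0.05 ± 0.17 in SCC6 and −0.22 ± 0.15 in SCC25, and none passed. A CpG-rich region 15.7 kb upstream (chr3:181413122-181414000) separated the lines. It read 117 and 135 in SCC1, 189.6, 183 and 154 in SCC25 and 6.04, 4.01 and 4.35 in SCC6, with treated libraries almost as low (7.07, 5.57 and 8.60). SCC6 differed by −4.47 ± 0.33 from SCC1 on the log2 scale (adjusted p = 1.60e-05), and SCC25 differed by 4.94 ± 0.25 from SCC6 (adjusted p = 1.95e-09), while the median difference of neighbouring regions was −0.22 and 0.43. With cetuximab, 1 region fell in each of 2 lines, chr3:181457466-181457675 in SCC1 (−2.28, adjusted p = 0.0407) and chr3:181419909-181420115 in SCC6 (−0.82, adjusted p = 0.0306). The former call was lost without cetuximab replicate 1 or PBS replicate 1 or 3 (adjusted p = 0.107 to 0.552) and the latter without cetuximab replicate 2 or PBS replicate 1 or 2 (adjusted p = 0.0653 to 0.127). Removing the GC trend also ended both (adjusted p = 0.0625 and 0.0987), as did median centring, quantile normalization or no filter for the former (0.0609 to 0.0709) and 1 joint fit or scaling by peak-free regions for the latter (0.0666 to 0.0986).

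KLF4, a factor of differentiating keratinocytes, had 4 regions. Its promoter region (chr9:110251776-110252691, over the UTR, GC content 73.4%) read 129, 111 and 146 in treated and 71.6 and 83.7 in untreated SCC1 libraries, without overlap (0.72 ± 0.25, adjusted p = 0.0398). With the GC trend removed this change was 0.27 with an adjusted p of 0.520, and the call was also lost without cetuximab replicate 1 or 3 or PBS replicate 1 or 3 (adjusted p = 0.114 to 0.396), with no filter (0.0820) and with scaling by peak-free regions (0.0670). In the interaction test of all lines the KLF4 promoter did not pass without SCC1 PBS replicate 1 (0.0654). SCC6 read 63.6, 82.6 and 94.6 with cetuximab and 109, 109.7 and 92.4 with PBS, a change of −0.38 ± 0.18 (adjusted p = 0.106), and SCC25 163, 158 and 156 and 137, 162 and 169.7. The change differed between lines (adjusted p = 0.0109). Untreated SCC25 cells had a more accessible KLF4 promoter than SCC1 (1.00 ± 0.16, adjusted p = 0.000147), beside a median of 0.63 over 431 neighbouring regions. A region 22.6 kb downstream (chr9:110227897-110228130) was at the floor in SCC6 PBS (1.21, 0.669 and 1.09), compared with 28.6 and 60.3 in SCC1 and 38.1, 35.3 and 46.7 in SCC25, or at least 15.0-fold higher in SCC1 and at least 13.5-fold in SCC25. Upstream, chr9:110266909-110267429 fell in SCC6 from 62.8, 52.2 and 65.3 to 39.4, 40.8 and 33.4 (−0.65 ± 0.24, adjusted p = 0.0333), a call lost without cetuximab replicate 2 or 3 or PBS replicate 1 or 3 (adjusted p = 0.0562 to 0.115), with 1 joint fit (0.0949) and with scaling by peak-free regions (0.147).

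KLF5 had an open promoter in every library. Its region at chr13:73632762-73633314, over the UTR and the start, had a peak in each of the 17 (fold enrichment 2.72 to 6.22). It read 302 and 389 in SCC1 PBS, 255, 315 and 308 in SCC6 PBS and 229.9, 237 and 187 in SCC25 PBS, and was lower in SCC25 than in SCC1 (−0.66 ± 0.14, adjusted p = 0.00116) and SCC6 (−0.42 ± 0.12, adjusted p = 0.00420, and 0.0724 with quantile normalization). With cetuximab it changed by −0.20 ± 0.17 (SCC1), −0.22 ± 0.10 (SCC6) and −0.01 ± 0.13 (SCC25), short of the threshold in each line. Downstream of the gene, 2 intergenic regions were higher with cetuximab in SCC6. At chr13:73670352-73671021 (21.2 kb from the nearest KLF5 start) the libraries read 127, 116 and 109 against 89.4, 79.0 and 69.6, without overlap (0.56 ± 0.17, adjusted p = 0.00987). In SCC1 this region read 122, 107 and 129.9 against 63.8 and 96.0 (0.60 ± 0.25, adjusted p = 0.106), and it was lower in SCC25, at 17.3, 18.0 and 19.5 in PBS (−2.04 ± 0.28 from SCC1, adjusted p = 4.20e-05). At chr13:73664495-73664913 SCC6 rose from 36.2, 40.8 and 53.3 to 66.7, 60.3 and 71.7 (0.61 ± 0.23, adjusted p = 0.0382), whereas SCC1 read 113 and 92.7 and 82.5, 54.5 and 64.2, and the interaction had an adjusted p of 0.0317. In SCC6 the former call was lost without PBS replicate 3 (adjusted p = 0.0541) and the latter without cetuximab replicate 1 or 2 or 3 or PBS replicate 1 or 2 (adjusted p = 0.0632 to 0.135). Median centring, 1 joint fit and DESeq2 each ended both calls (adjusted p = 0.0615 to 0.179), and quantile normalization (0.119), no filter (0.0539) and edgeR (0.0542) the latter. Its interaction also did not pass with median centring (0.113) or quantile normalization (0.0959). Nor did it pass without SCC25 PBS replicate 1 or 3, SCC6 PBS replicate 1 or 2, or SCC6 cetuximab replicate 1 or 3 (adjusted p = 0.0519 to 0.0898). The same held without SCC1 PBS replicate 1.

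GRHL1 had called changes of opposite sign in SCC1 and SCC6. At chr2:10084491-10084807, an intergenic region 7.01 kb upstream of its start, the SCC1 libraries read 43.2, 44.8 and 70.4 with cetuximab and 14.3 and 11.2 with PBS, a change of 1.94 ± 0.42 (adjusted p = 0.000298). The SCC6 libraries read 12.1, 11.1 and 11.2 with cetuximab and 33.8, 50.9 and 45.7 with PBS, a change of −1.81 ± 0.32 (adjusted p = 1.41e-05). Neither line had overlapping groups. SCC25 was low throughout (1.41, 9.12 and 8.86 and 2.26, 5.77 and 9.33), and the interaction had an adjusted p of 0.00295. The 3 calls at this region kept their direction and side of the threshold in each of 15, 16 and 22 refits. The promoter region of GRHL1 (chr2:10091235-10092028, over coding exon, UTR and start, GC content 78.5%) had changes of the same signs. It read 216, 162 and 230.1 and 112 and 147 in SCC1 (0.64 ± 0.21, adjusted p = 0.0284) and 112, 110.5 and 126 and 158, 132 and 158 in SCC6 (−0.36 ± 0.14, adjusted p = 0.0569), with an interaction p of 0.0183 after adjustment. With the GC trend removed, the SCC1 change was 0.16 (adjusted p = 0.666), and the call was lost without cetuximab replicate 1 or 3 or PBS replicate 1 or 3 (adjusted p = 0.0732 to 0.503), with no filter (0.0582) and with scaling by peak-free regions (0.0586). The interaction did not pass without SCC1 PBS replicate 1 (0.164) or cetuximab replicate 3 (0.0535). In SCC6, chr2:10081683-10082036 (−1.28 ± 0.33, adjusted p = 0.00277) and chr2:10054801-10055091 in an intron of TAF1B (−1.07 ± 0.28, adjusted p = 0.00336) fell as well, as did a region over the start of KLF11 (−0.49 ± 0.15, adjusted p = 0.0101, lost without cetuximab replicate 2 or PBS replicate 1 (adjusted p = 0.0626 to 0.168)). The KLF11 change was −0.14 with the GC trend removed (adjusted p = 0.544), and did not pass with 1 joint fit (0.0889) or scaling by peak-free regions (0.157). Untreated, the GRHL1 window was least accessible in SCC25, lower than SCC1 at 6 of 10 tested regions (0 higher) and lower than SCC6 at 8 of 9 (1 higher), with median differences of −1.37 and −1.75 beside 0.15 and −0.13 in the neighbourhood. In an intron of the adjoining TAF1B, chr2:10045593-10045878 read 1.13, 0.721 and 0.848 in SCC25 PBS, 30.2, 31.4 and 27.2 in SCC6 PBS and 19.5 and 15.6 in SCC1 PBS (−4.01 ± 0.23 for SCC25 against SCC6, adjusted p = 2.03e-09).

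GRHL2, whose product keeps epithelial cells epithelial, had 20 regions, one of them at its promoter (chr8:102504297-102505014, over its first coding exon). This promoter read 174 and 199.9 in SCC1 PBS, 169, 212 and 221 in SCC6 PBS and 168, 129 and 148 in SCC25 PBS, and its changes with cetuximab were 0.34 ± 0.19, −0.11 ± 0.12 and 0.08 ± 0.14, with none past the threshold. Upstream, neighbouring regions moved in opposite directions. At chr8:102467150-102467550, 37.1 kb from the start, treated SCC6 libraries read 127, 100.3 and 127 and untreated 47.1, 40.8 and 40.2 (1.44 ± 0.20, adjusted p = 1.25e-07, the smallest of any member with treatment). SCC1 rose from 6.51 and 5.58 to 30.5, 23.4 and 36.0 (2.12 ± 0.57, adjusted p = 0.00540, and 0.0535 without PBS replicate 3). SCC25 read 54.8, 43.6 and 58.4 and 35.0, 31.7 and 28.0, also without overlap, but did not pass (0.70 ± 0.25, adjusted p = 0.206). The size of the change differed between lines (interaction, adjusted p = 0.0364), which did not pass with a pseudocount of 5, with quantile normalization or in 10 of the refits without 1 library (adjusted p = 0.0507 to 0.137). At chr8:102464004-102464640, 40.0 kb from the start, SCC1 fell from 159 and 162 to 69.8, 77.9 and 97.0 (−0.98 ± 0.25, adjusted p = 0.00249) and SCC6 from 94.2, 85.6 and 113 to 68.7, 54.8 and 50.6 (−0.74 ± 0.20, adjusted p = 0.00304). The call in SCC1 was lost without PBS replicate 1 or 3 (adjusted p = 0.0937 to 0.103). SCC25 values overlapped there, at 75.9, 109 and 109.8 and 126, 92.3 and 87.4. An intronic region, chr8:102654604-102654876, fell in SCC1 (−2.56, adjusted p = 0.0122) and SCC6 (−0.93, adjusted p = 0.0136). These calls were lost without PBS replicate 1 or 3 (adjusted p = 0.122 to 0.296) in SCC1 and without cetuximab replicate 3 or PBS replicate 3 (adjusted p = 0.0532 to 0.0816) or with 1 joint fit (0.0895) in SCC6. In SCC6 the upstream regions chr8:102458457-102458884 (0.64) and chr8:102466245-102466445 (0.80) rose (adjusted p = 0.00911 and 0.0100), the latter not without PBS replicate 1 (adjusted p = 0.0719), with 1 joint fit (0.185) or with DESeq2 (0.0519), and the former not with median centring (0.0600) or the GC trend removed (0.0803).

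GRHL3, a factor of terminal barrier formation, was called in SCC6 at 2 of 9 tested regions, a smaller share than the 27.5% of all regions. Both lay in introns and were lower with cetuximab. chr1:24621368-24621639 fell from 26.6, 8.70 and 26.1 to 3.03, 6.50 and 6.94 (−1.64 ± 0.50, adjusted p = 0.0107) and chr1:24562819-24563014 from 14.5, 10.0 and 23.9 to 1.01, 7.43 and 6.94 (−1.66 ± 0.56, adjusted p = 0.0230). The former call was lost without PBS replicate 1 or 3 (adjusted p = 0.0842 to 0.0889) and the latter without cetuximab replicate 1 or PBS replicate 1 or 3 (adjusted p = 0.0564 to 0.161) or with the GC trend removed (0.0570). Neither had an interaction past the threshold (adjusted p = 0.482 and 0.300). Its promoter region with the highest signal (chr1:24648319-24648972, at an internal start) read 45.5 and 69.2 in SCC1 PBS, 72.5, 51.5 and 47.9 in SCC6 PBS and 75.7, 68.5 and 55.1 in SCC25 PBS, and changed by 0.42 ± 0.29, −0.26 ± 0.23 and 0.34 ± 0.20 with cetuximab, with none past the threshold. Without treatment, 8 of 12 tested GRHL3 regions were higher in SCC25 than in SCC6 and 1 lower (median 1.25, against 0.66 in the neighbourhood). Among the regions of this window, chr1:24522384-24522758, 3.29 kb upstream of the gene, read 1.21, 2.01 and 1.09 in SCC6, 37.7 and 19.0 in SCC1 and 55.8, 46.2 and 42.4 in SCC25. The intronic region chr1:24592902-24593396 had the opposite order, with 111, 76.3 and 100.1 in SCC6, 18.2 and 32.4 in SCC1 and 18.5, 7.21 and 17.8 in SCC25. No region of this window was called in SCC1 with cetuximab, and in SCC25 its region over a coding exon of IFNLR1 had the smallest adjusted p of any member (0.161).

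OVOL1 and ZNF750, the factors of late differentiation, had no called change with cetuximab at the OVOL1 promoter or within the ZNF750 gene. The OVOL1 promoter region (chr11:65560659-65560950, in an intron, beside an internal start) read 105, 87.6 and 109.5 with cetuximab and 74.2 and 79.3 with PBS in SCC1 (0.38 ± 0.26, adjusted p = 0.384). It was lower in SCC6, at 32.6, 31.4 and 34.8 in PBS (−1.19 ± 0.21 from SCC1, adjusted p = 0.00114), and read 88.2, 75.7 and 72.1 in SCC25. The 2 regions called higher in SCC1 in this window lay over coding exon of AP5B1 (chr11:65547460-65547694, 1.11 ± 0.36, adjusted p = 0.0255) and its start (chr11:65548315-65548697, 1.09 ± 0.34, adjusted p = 0.0192). The former was lost without cetuximab replicate 1 or 3 or PBS replicate 1 (adjusted p = 0.104 to 0.485) and the latter without cetuximab replicate 1 or 3 or PBS replicate 1 or 3 (adjusted p = 0.0692 to 0.193). With the GC trend removed neither passed (adjusted p = 0.254 and 0.252), nor did the former with no filter (0.0556) or with DESeq2 (0.0599). No region lay within 1 kb of the ZNF750 start. The region nearest to it was in an intron (chr17:80793928-80794328, 3.57 kb from the start, also within an intron of TBCD on the other strand), with 131 and 114 in SCC1 PBS, 71.2, 44.7 and 80.6 in SCC25 PBS and 1.21, 5.35 and 5.44 in SCC6 PBS. SCC6 differed from SCC1 by −4.78 ± 0.51 (adjusted p = 6.94e-05), with a neighbourhood median of −0.19. Its change with cetuximab was 0.34 ± 0.22 in SCC1 and 0.07 ± 0.22 in SCC25, and in SCC6 it was too low to be tested. The 3 ZNF750-window regions called higher in SCC1 lay in TBCD. The call at the region starting at chr17:80816360 was lost without cetuximab replicate 1 or 3 (adjusted p = 0.0764 and 0.0673) or PBS replicate 1 or 3. That at the region starting at chr17:80832412 was lost with the GC trend removed (adjusted p = 0.0706), without cetuximab replicate 1 (0.0521) or without PBS replicate 1. The largest change, at chr17:80739754-80740032, went from 14.3 and 23.4 to 48.2, 48.7 and 64.2 (1.49 ± 0.39, adjusted p = 0.00380, and 0.192 without PBS replicate 1). In SCC1 the neighbouring regions were also higher with cetuximab, with a median of 0.75 over 213 regions around ZNF750, 0.59 over 501 around OVOL1 and 0.47 over 370 around GRHL3, compared with −0.09 over all regions.

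**Figure D4:**
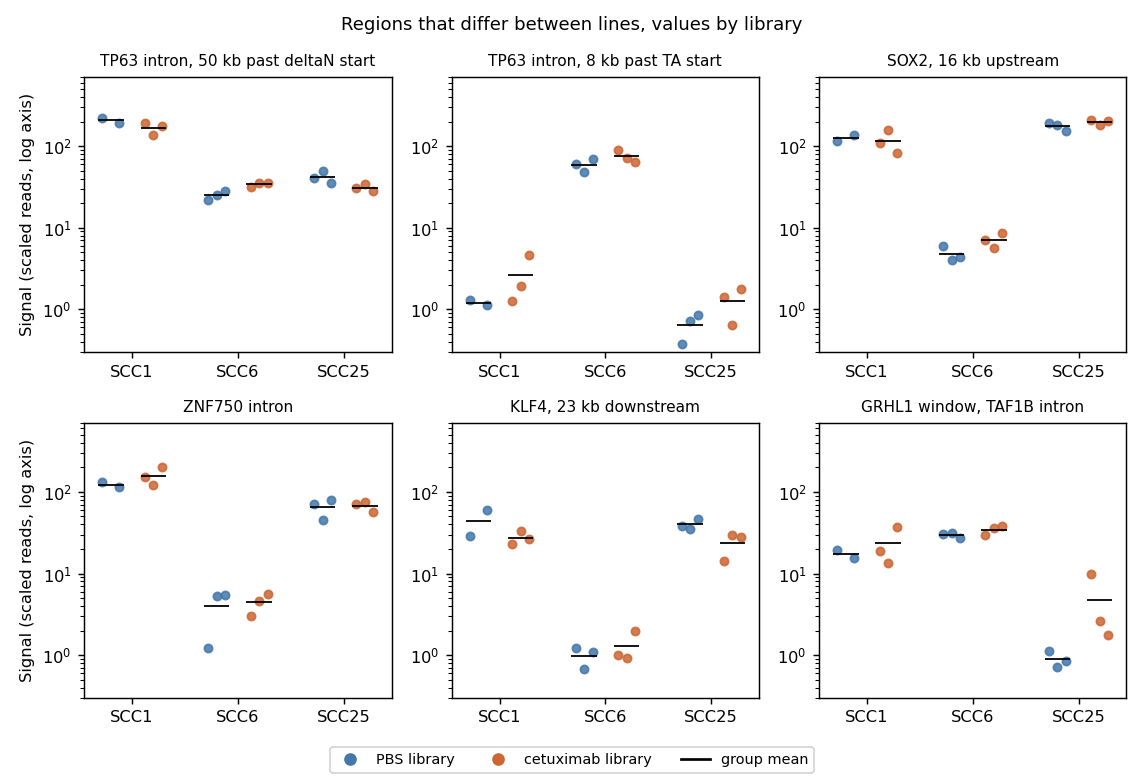
Signal in scaled reads (y axis, log scale) of each library at 6 regions that differed between lines (x axis), with PBS in blue, cetuximab in orange and group means as bars. The SOX2, ZNF750 and KLF4 regions are lower in all 6 SCC6 libraries than in any library of the other lines, as is the TP63 region 8.39 kb past the TA start in SCC1 and SCC25 than in SCC6, and the TP63 region 49.9 kb past the deltaN start is highest in SCC1.

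**Figure D5:**
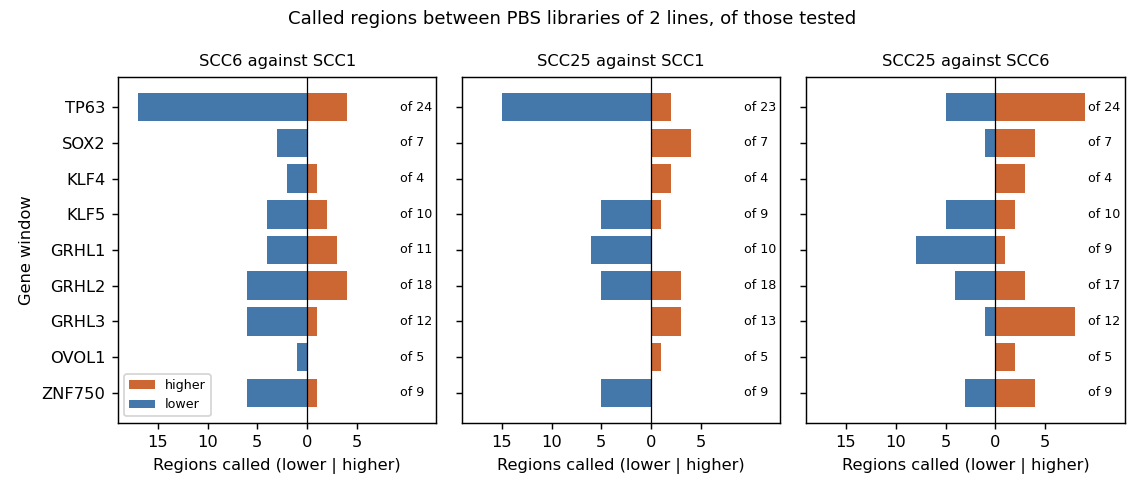
Number of regions called between the PBS libraries of each pair of lines (x axis, lower to the left and higher to the right), by gene window (y axis), beside the number tested. The TP63 bars point to lower values in SCC6 and SCC25 than in SCC1, and the GRHL1 bars to lower values in SCC25.

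Other genes of the squamous programme were read at their promoter regions. Of 15 further transcription factors, 14 had one (BNC1 had none). In SCC1, 2 of the 14 were called, SOX15 higher (1.04, adjusted p = 0.0292) and EHF lower (−2.57, adjusted p = 0.0196). Over all gene promoters in SCC1 the share was 16.9% (1805 of 11672 higher and 164 lower). In SCC6, 4 of 14 were called, against 14.9% of gene promoters (356 of 11375 higher and 1341 lower). Over all gene promoters, most of those called thus rose in SCC1 and fell in SCC6. The called factors were split, with 1 higher and 1 lower in SCC1 and 2 higher and 2 lower in SCC6. The largest change of the 4 factors called in SCC6 was at TP73. This p53-family relative of TP63 rose from 7.45 ± 1.34 to 58.5 ± 5.13 (mean ± SD, n = 3 each, log2 change 2.82, adjusted p = 1.66e-09), while it was 143 ± 8.42 (n = 2) in SCC1 PBS and 172 ± 25.3 (n = 3) in SCC25 PBS. DLX5 (0.97, adjusted p = 0.00153) rose too, and EHF (−0.82, adjusted p = 0.0223) and CEBPB (−0.45, adjusted p = 0.0365) fell. Of 15 genes known as p63 targets, 14 had a promoter region (JAG2 had none). In SCC1, 3 of 14 rose, the hemidesmosome integrins ITGB4 (1.13, adjusted p = 1.39e-05) and ITGA6 (0.72, adjusted p = 0.0488), and TRIM29 (0.47, adjusted p = 0.0487). In SCC6, 3 of 13 were called, with the basal keratin KRT5 higher (0.93, adjusted p = 0.0125) and TRIM29 (−0.49, adjusted p = 0.0209) and DST (−0.29, adjusted p = 0.0292) lower. In SCC25, 0 of 14 factors and 0 of 14 targets were called, where 5 of 11657 gene promoters were. Between untreated lines, 9 of 14 p63 targets were lower and 1 higher in SCC6 than in SCC1 (median −0.77, against 0.08 over gene promoters). Of gene promoters, 48.2% were called there (3402 of 11543 higher and 2162 lower). In SCC25, 6 targets were lower and 1 higher than in SCC1 (median −0.32, against −0.18 over gene promoters). Here 53.5% of gene promoters were called (2330 of 11675 higher and 3918 lower). Of the other factors, 6 were higher and 4 lower in SCC6 than in SCC1, and 3 were higher and 3 lower in SCC25 than in SCC1, so that in the second comparison neither list was called more often than gene promoters were. KRT14 was 1.66 ± 0.885 in SCC6 and 38.8 ± 5.16 in SCC1, and FGFBP1 41.7 ± 3.96 and 175 ± 10.0.

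The promoter regions outside the 9 genes whose log2 signal was most like that of the TP63 deltaN promoter region over the 17 libraries were those of OLFML2B (Pearson's r = 0.82), SLC11A1 (0.81) and EMX2 (0.79). These libraries share lines and scaling, and the values are a description.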

How the data were processed

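ATAC-seq was performed on 3 HNSCC cell lines with cetuximab or PBS, and 17 libraries were analysed. The authors trimmed reads with Trim Galore 0.5.0, aligned them to hg19 with Bowtie2 2.3.2, and removed duplicate, mitochondrial and low-quality reads with Picard 2.18 and SAMtools 1.9. Broad peaks were called per library with MACS2 and merged with DiffBind into 1 table of regions, and the cutoffs and the versions of the last 2 tools are not given in the sources used here. The deposited table holds a signal per region and library, scaled between libraries by the authors. The deposited peak lists hold a fold enrichment ratio and the −log10 of p and q values, of which peak positions and fold enrichment were used. Each signal was a whole number of reads times 1 step per library (100% of values within 0.001, with regions of 0 reads set to 1), which gave 2194851 to 15017130 reads in regions per library.

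Regions were tested with limma 3.58.1 (R 4.3.3; trended, robust, two-sided) on log2(signal + 1), after leaving out the lowest 25% by mean, with Benjamini-Hochberg adjustment over all regions tested and a threshold of 0.05. A fold change on this scale understates the change of low regions. Each line was fitted alone, each pair of lines on its PBS libraries, and the interaction on all libraries. Count tests on the recovered reads (edgeR 4.0.16 and DESeq2 1.42.0) were alternatives, and edgeR called 11051 regions in SCC1, 24745 in SCC6 and 968 in SCC25. Other alternatives were median centring, quantile normalization, scaling by reads of peak-free regions, removal of a GC trend, a pseudocount of 5, no filter, 1 joint fit, a replicate block and leaving out each library. The fits were first tested on simulated tables in which 200 regions changed by a log2 of 2. Of these, 58% were recovered in SCC1, 86% in SCC6, 86.5% in SCC25 and 51% in the interaction. False calls were 1 of 117, 9 of 181, 5 of 178 and 10 of 112. Between lines, 76% (SCC6 and SCC1), 74% (SCC25 and SCC1) and 86% (SCC25 and SCC6) were recovered. There, 8 of 160, 14 of 162 and 4 of 176 calls were false. Replicates differed beyond sampling noise by a chi-square test, so none was merged.

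Members, gene lists and tests were chosen with earlier results of these data known. Regions were described by a rule: for each gene the promoter region and the region of highest mean, in each line the 3 higher and 3 lower calls with the smallest adjusted p and no overlap, the 3 smallest interaction p, and for each pair of lines the 2 higher and 2 lower calls. All other regions described were picked after their values were seen. From the list of further factors, 1 gene is not reported here. Gene positions came from GENCODE release 44 mapped to GRCh37. Sequences and motifs were read from GRCh37, and neighbourhoods were tested regions within 5 Mb of a window and outside all windows. Scripts used Python 3.11.15, numpy 2.4.6, pandas 2.3.3, scipy 1.17.1, pysam 0.24.0 and matplotlib 3.10.9.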

Additional observations from a re-analysis of the deposited data

Results flagged for a closer look

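At 15 of the 99 tested regions around the 9 genes, the change with cetuximab differed between the 3 lines by limma's test of the interaction, where 13.2% of all regions did. Of these 15, 4 passed in every refit without 1 library, namely chr3:189659589-189659743, chr3:189428440-189428791, chr3:189626485-189626803 and the region upstream of GRHL1. Those of the 15 in the TP63 window were chr3:189659589-189659743 (adjusted p = 0.000788), chr3:189428440-189428791 (0.00261), chr3:189626485-189626803 (0.00374), chr3:189646131-189646341 (0.0172) and chr3:189542368-189542898 (0.0310). At these 5, the SCC1 change was −1.04, −1.17, −1.75, −2.38 and −0.01, beside 1.59, 0.69, −0.42, −1.05 and 1.01 in SCC6. In the GRHL1 window the region upstream of the gene (0.00295), the KLF11 promoter (0.0126) and the GRHL1 promoter (0.0183) differed, with SCC1 changes of 1.94, 0.71 and 0.64 and SCC6 changes of −1.81, −0.49 and −0.36. In the GRHL2 window the intronic region chr8:102654604-102654876 (0.0216) and the upstream region chr8:102467150-102467550 (0.0364) differed in size of change. The remaining regions were the KLF4 promoter (0.0109), a TBCD intron in the ZNF750 window at chr17:80832412-80832726 (0.0155), both AP5B1 regions of the OVOL1 window (0.0278 and 0.0298) and chr13:73664495-73664913 near KLF5 (0.0317).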

How the results depend on the processing

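Depth was low in SCC1, where a median of 7 to 15 reads lay in a region, and in some treated SCC25 libraries (11 to 35). Its part in the number of calls was not tested. Of the calls among all member regions, 9 of 17 in SCC1, 9 of 20 in SCC6 and 11 of 15 interactions passed under every other setting, and 2, 9 and 4 in every refit without 1 library. Between PBS libraries 54 of 65 (SCC6 and SCC1), 36 of 52 (SCC25 and SCC1) and 57 of 63 (SCC25 and SCC6) passed under every other setting, and 51, 38 and 53 without each library. Promoter results kept direction and side of the threshold in 209 of 240 and 117 of 136 refits. The regions called numbered 3 to 22 in SCC1 and 13 to 22 in SCC6 when 1 library was left out (10 without SCC1 cetuximab replicate 1, 3 and 6 without SCC1 PBS replicates 1 and 3, and 13 without SCC6 PBS replicate 1). One fit to all libraries called 12 regions in SCC6. In SCC25 edgeR called 1 region. Scaling by reads of peak-free regions called 7, all lower, where 13565 of all 86315 regions were called, 13459 of them lower. The median change over all regions in SCC25 was then −0.37, and in SCC6 0.34.

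Directions that turned were all below the threshold. With the GC trend removed, changes in SCC6 were 0.14 at the SOX2, 0.062 at the KLF5, 0.11 at the GRHL2 and 0.021 at the GRHL3 promoter region, and −0.14 at that of KLF4 in SCC25. With scaling by peak-free regions, they were 0.17 at SOX2, 0.0099 at KLF5 and 0.11 at GRHL2 in SCC6, and −0.27 at KLF4 and −0.22 at GRHL2 in SCC25. With median centring and quantile normalization, OVOL1 in SCC6 was at −0.051 and −0.044, and KLF5 in SCC25 at 0.068 and 0.056 (0.074 by edgeR, 0.079 by DESeq2). With 1 library left out, the TP63 deltaN promoter in SCC25 was at −0.40 to 0.097, SOX2 in SCC6 at −0.11 to 0.035, KLF4 in SCC25 at −0.059 to 0.093, GRHL2 in SCC25 at −0.019 to 0.17 and KLF5 in SCC25 at −0.11 to 0.10. The cause of these differences was not tested.

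Same-numbered treated and untreated libraries did not deviate together (correlations of −0.02 to 0.04), so the numbers were not taken as pairs. With the replicate block, 21 regions were called in SCC1, 21 in SCC6, 0 in SCC25 and 15 by the interaction, and 58, 46 and 63 between the PBS libraries of SCC6 and SCC1, SCC25 and SCC1, and SCC25 and SCC6. The other genes of the squamous programme were not refitted.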
